A study of Mus musculus with 24 samples.

Results

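Zinc finger genes that lie close together on a chromosome were examined in ATAC-seq data from mouse embryonic stem cells with and without Smad2. The genes were chosen by symbol and position: protein-coding autosomal genes of the GRCm38 gene table whose symbol starts with Zfp and that have at least 3 other Zfp genes within 500 kb. The rule kept 192 of 391 autosomal Zfp genes, which fall into 22 clusters on 10 chromosomes. Chromosome 7 alone holds 78 of the genes in 9 clusters, chromosome 17 holds 34, chromosome 13 holds 24 and chromosome 4 holds 15. An accessible interval was counted as a member when it overlapped the body of such a gene or the 10 kb on either side. That gave 1114 of 299780 intervals in the table of untreated cells and 1032 of 272268 in the table of inhibitor-treated cells.

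The cells were of the E14 line, kept in serum with LIF on gelatin. WT cells were compared with the knockout lines Smad2_KO1 and Smad2_KO2, each untreated (Ctrl) and after 12 hours in 200 nM INK128, an inhibitor of the mTOR kinase (Paused). Each of the 6 groups had 4 libraries. All 3 lines carry the E14 label, and the labels do not say how the knockout lines were made, whether each is 1 clone, or whether the 4 replicates were separate cultures. P-values therefore measure only the spread between these libraries.

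Most genes in such clusters encode KRAB zinc finger proteins, a family that has grown by repeated local duplication. A KRAB protein binds DNA, often inside a retroelement, through its array of zinc fingers and recruits the corepressor TRIM28, which brings in the histone methyltransferase SETDB1, HP1 proteins and DNA methylation. The clusters themselves are known to carry repressive histone methylation, mainly over the zinc finger exons at the 3' ends of the genes, while their promoters stay open in embryonic stem cells. The symbol rule also takes in genes of other kinds, such as Zfp36, which encodes tristetraprolin, a CCCH-type protein that binds AU-rich elements of mRNA and promotes decay.

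To show what these promoters look like, the 250 bases before the start site of 4 of the genes are given 5' to 3' on the gene's own strand, as listed by RefSeq for GRCm38.p6. They are Zfp712 at chr13:67061171-67061420 (minus strand), Zfp112 at chr7:24112070-24112319 (plus strand), Zfp790 at chr7:29815822-29816071 (plus strand) and Zfp811 at chr17:32809932-32810181 (minus strand). Zfp712, Zfp112 and Zfp811 had the strongest interval of their clusters at the promoter in both tables and Zfp790 in Ctrl, and Zfp811 is the promoter with values given in full below. Capitals mark AATGTAGT, the 8-letter word most in excess in the clustered promoters.
Zfp712: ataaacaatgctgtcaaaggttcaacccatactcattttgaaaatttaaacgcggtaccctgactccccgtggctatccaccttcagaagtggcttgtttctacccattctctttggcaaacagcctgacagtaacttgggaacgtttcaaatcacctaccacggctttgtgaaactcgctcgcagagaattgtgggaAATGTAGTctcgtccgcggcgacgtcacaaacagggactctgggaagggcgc
Zfp112: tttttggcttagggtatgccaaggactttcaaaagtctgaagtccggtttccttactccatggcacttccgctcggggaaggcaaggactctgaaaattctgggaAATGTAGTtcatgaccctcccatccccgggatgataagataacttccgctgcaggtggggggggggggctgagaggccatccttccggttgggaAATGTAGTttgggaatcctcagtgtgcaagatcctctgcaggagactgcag
Zfp790: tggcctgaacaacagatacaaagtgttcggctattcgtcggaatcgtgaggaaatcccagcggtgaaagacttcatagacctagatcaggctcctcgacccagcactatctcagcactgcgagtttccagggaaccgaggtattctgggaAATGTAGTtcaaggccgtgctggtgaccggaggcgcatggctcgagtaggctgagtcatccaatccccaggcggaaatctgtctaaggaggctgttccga
Zfp811: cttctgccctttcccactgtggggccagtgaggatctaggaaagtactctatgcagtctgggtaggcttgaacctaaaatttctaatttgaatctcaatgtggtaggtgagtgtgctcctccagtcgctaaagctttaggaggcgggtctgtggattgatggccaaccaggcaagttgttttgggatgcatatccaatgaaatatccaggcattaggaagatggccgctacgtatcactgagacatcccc
The word lay 52 bases before the start of Zfp712, 100 bases before that of Zfp790, and 145 and 51 bases before that of Zfp112, while the printed stretch of Zfp811 holds no match. Zfp811 also had few CpG dinucleotides, 4 in its 250 bases, against 13 for Zfp712, 6 for Zfp112 and 14 for Zfp790.

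Windows of 300 bases around RefSeq start sites were found for 172 of the 192 genes, 188 windows in all. AATGTAGT or its other strand, ACTACATT, was present in 35 of them (18.6%), in 6 of 208 windows of unclustered Zfp genes (2.88%) and in 268 of all 21263 protein-coding windows (1.26%). The word was picked because it was the most over-represented, so these shares are a description. It was unevenly spread over the clusters. All 4 windows of the chromosome 7 cluster from Zfp954 to Zfp772 held it, as did 9 of 15 from Zfp84 to Zfp146, 11 of 22 in the chromosome 13 cluster, 3 of 5 from Zfp354c to Zfp354a on chromosome 11, 4 of 11 from Zfp180 to Zfp575, 3 of 9 from Zfp607b to Zfp36 and 1 of 6 from Zfp787 to Zfp28. The other 15 clusters had no match, which says only that these letters are not in these windows. The 37 matches lay a median of 61 bases before the start site, 30 of them within 100 bases. The clustered promoters held a median of 10 CpG dinucleotides per window, fewer than the 17 of unclustered Zfp genes and the 13 of all genes.

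Recovered depth lay between 11.8 and 16.5 M reads per library in Ctrl, and in Paused between 11.5 and 20.0 M. The 2 tables were normalized separately and hold different intervals, so no test was made across them. At Smad2 itself, the strongest of 7 Ctrl intervals averaged 361.8 ± 44.6 normalized reads (SD, n = 4) for WT, 363.1 ± 42.6 for Smad2_KO1 and 354.6 ± 23.1 for Smad2_KO2. In Paused the strongest of 11 averaged 441.3 ± 90.8, 399.6 ± 15.0 and 388.8 ± 26.9 in the same order (limma adjusted p 0.394 and 0.238). Accessibility there does not test for the protein. Intervals near marker genes of other cell types were also accessible. With each gene taken at its strongest interval, and at 0 where it had none, 8 pluripotency genes had a median level of 192 normalized reads in Ctrl and 227 in Paused, with Pou5f1 at 44.9 and 71.4 and Dppa5a without an interval. Primitive endoderm markers had medians of 186 and 238 (5 genes), trophoblast markers 89.5 and 163 with Gata3 at 459 and 486 (4 genes), mesendoderm markers 117 and 108, fibroblast markers 92.2 and 124, and two-cell-like markers 9.74 and 5.35. The Paused libraries Smad2_KO1 replicate 2 and Smad2_KO2 replicate 2 differed by no more than sampling noise (chi-square per degree of freedom 1.00132, noise limit 1.00554), although they carry different line labels. For replicates 1, 3 and 4 the same-numbered knockout libraries of Paused had 1.03, 1.07 and 1.03, above the limit. In Ctrl replicates 1 to 4 had 1.07, 1.21, 1.27 and 1.02. All libraries were kept apart, and counts with the knockout libraries of each replicate number averaged are given below.

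An interval was called when its adjusted p was under 0.05 against WT in each knockout line with the same sign (limma on log2 of the normalized reads plus 1, Benjamini-Hochberg over all tested intervals). Both contrasts use the same 4 WT libraries. Intervals with a value of 10 or more in at least 4 libraries were tested, which kept 1025 of the 1114 members in Ctrl and 966 of 1032 in Paused and left 89 and 66 untested. Of the 192 genes, 16 had no member interval in either table, 14 of them in the cluster from Zfp980 to Zfp933 on chromosome 4.

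In untreated cells, both knockout lines differed from WT at 73 of 1025 tested zinc finger intervals (7.12%), where 7.15% of all intervals were called. Of these, 52 were higher in both knockout lines (5.07%, all intervals 3.95%) and 21 were lower (2.05%, all intervals 3.2%). The median log2 fold change was 0.09 over the members and 0.08 over all tested intervals. Taken alone, Smad2_KO1 differed from WT at 112 members (all intervals 11.6%) and Smad2_KO2 at 100 (all intervals 10.7%). Between the knockout lines limma called 0 members (all intervals 0%), and 30 had an unadjusted p under 0.05 (2.93%, all intervals 3.28%). Independent lines without a difference would give a share of about 0.05, and both shares were lower. The 0 calls therefore cannot show that the lines agree independently, and a call in both lines is not independent support from each. At 76 members all 8 knockout libraries lay on the same side of all 4 WT libraries (all intervals 7.48%), and 50 of the 73 calls were among them. Without Smad2_KO1 replicate 1 the count fell to 47, and with averaged knockout libraries it was 112. With DESeq2's Wald test it was 37, 15 higher and 22 lower, and with DESeq2 size factors in the limma fit 70, 39 higher and 31 lower.

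Under mTOR inhibition 161 of 966 tested members (16.7%) differed in both knockout lines, where 13.9% of all intervals were called. The calls were 108 higher (11.2%, all intervals 9.01%) and 53 lower (5.49%, all intervals 4.92%), with a median log2 fold change of 0.09 against 0.12 over all tested intervals. Smad2_KO1 alone differed at 225 members (all intervals 19.4%) and Smad2_KO2 at 210 (all intervals 19.3%). Limma called 0 between the lines (all intervals 0%), with 16 at an unadjusted p under 0.05 (1.66%, all intervals 1.97%). Both shares were again lower than the 0.05 of independent lines without a difference. The groups were fully apart at 139 members (all intervals 11.5%), 110 of them called. Averaging the knockout libraries of each number gave 207 calls. Leaving out the Smad2_KO1 or the Smad2_KO2 library that agreed within sampling noise gave 108 or 110.

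The balance of directions depended on the scaling between libraries. The authors' scaling puts the median of all intervals above 0, at 0.08 in Ctrl and 0.12 in Paused, and DESeq2 size factors bring it to 0.01 and 0.02. With those factors the Paused calls were 76 higher and 118 lower, so the prevailing direction reversed, and the members' median became -0.01 against 0.02 for all intervals. TMM factors gave 79 higher and 112 lower, edgeR's quasi-likelihood test 72 and 114, and library totals 123 and 41. Offsets fitted along the level of the interval brought the median of all intervals to 0.00 in both tables and left 57 higher and 30 lower. Counts by direction below are therefore under the authors' scaling unless another is named, and not every flip under another scaling is listed.

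**Figure D1:**
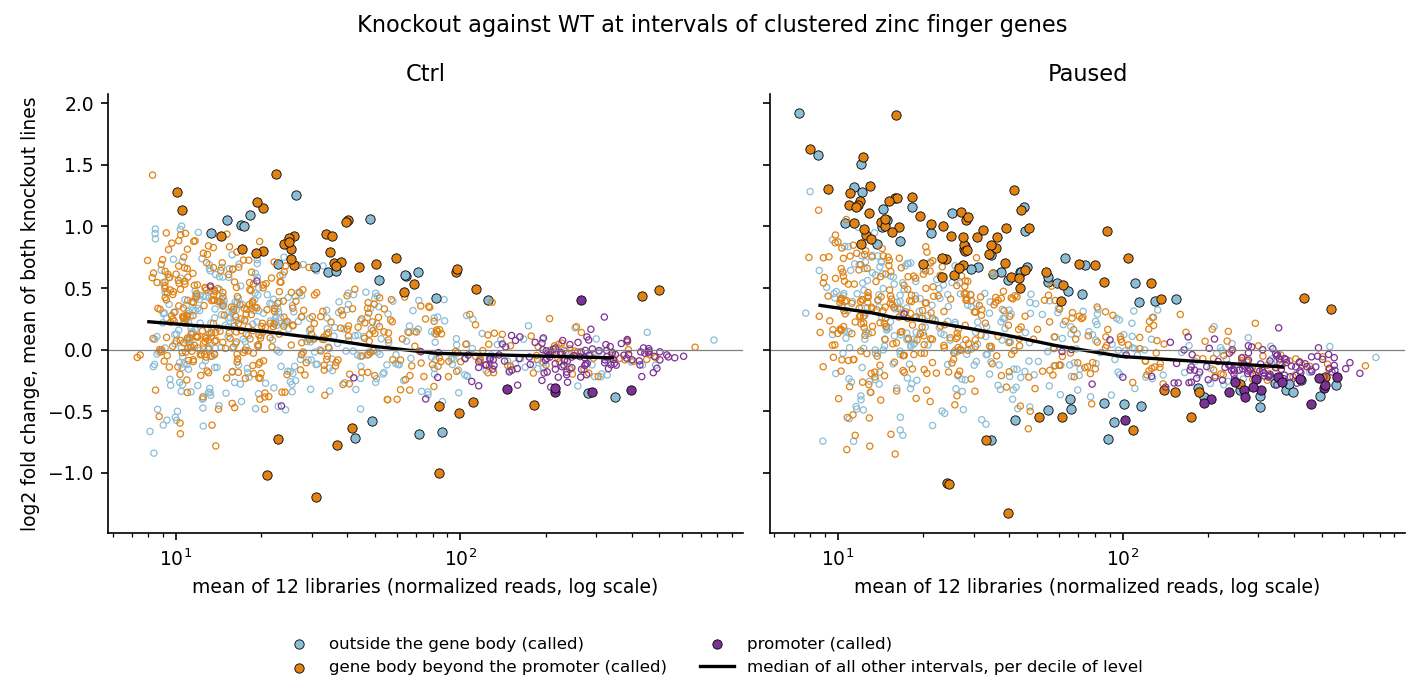
Each point is a tested zinc finger interval, with the mean of its 12 normalized values on a log axis and the mean log2 fold change of both knockout lines against WT on the other. Filled points are called, and the black line is the median of all other intervals per decile of level: it falls from 0.23 to -0.07 in Ctrl and, in Paused, from 0.36 to -0.14, with low gene-body points mostly above 0 and strong promoter points mostly below.

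Where an interval lay within its gene separated the directions more than membership did. Promoter intervals, which overlap the window from 250 bases before to 50 after a RefSeq start, had medians below 0 in both tables, and intervals inside the gene had medians above 0. In Ctrl 6 of 131 clustered promoters were called, 1 higher and 5 lower, with a median log2 fold change of -0.07, against 306 of 9381 promoters of all protein-coding genes (3.26%) and a median of -0.06. In Paused 18 of 128 (14.1%) were called and every one was lower, with a median of -0.16, against 1310 of 9298 (14.1%), 186 higher and 1124 lower, and -0.13 for all genes. The share of promoters called in Paused thus equalled the share over all genes. With size factors 53 clustered promoters were called in Paused and with TMM factors 49, all lower. With offsets along the level 6 were called, 2 higher and 4 lower, and the median was -0.02; in Ctrl those offsets turned the median to 0.01. With WT replicates 3 and 4 as the only WT libraries, 2 Ctrl promoters were called and both were higher. The Paused count fell to 11 without Smad2_KO1 replicate 2, to 10 without Smad2_KO1 replicate 3 and to 11 without WT replicate 4. The Ctrl count fell to 2 without Smad2_KO1 replicate 1, Smad2_KO1 replicate 3 or WT replicate 1, and to 3 without Smad2_KO2 replicate 1, 2 or 4.

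Inside the genes, beyond the promoter, 44 of 491 Ctrl intervals were called (8.96%), 34 higher and 10 lower, with a median of 0.15, where 6.66% of such intervals were called over all genes and the median was 0.09. In Paused 83 of 470 were called (17.7%), 70 higher and 13 lower, with a median of 0.22, against 13.9% and 0.15. The last 3 kb of the body, where zinc finger exons usually lie, held 77 tested intervals in Ctrl with 4 calls (5.19%, all intervals 7.15%) and 72 in Paused with 17 (23.6%, all intervals 13.9%), of which 14 were higher. The last 3 kb of other genes were not counted. Member genes without a RefSeq start had no promoter or last 3 kb class, so intervals at their ends counted as inside the gene. Promoters of genes that are not members were left out of the share over all genes but not out of the member class. The gene table gives bodies without exons, so exon and intron positions are not stated. The Paused split inside the genes was 54 higher and 28 lower with size factors, 79 and 10 with library totals, and 20 and 22 by DESeq2's Wald test, the setting under which the lower calls were the more numerous. Outside the bodies 23 of 403 were called in Ctrl (5.71%, all intervals 7.15%; 17 higher, 6 lower) and 60 of 368 in Paused (16.3%, all intervals 13.9%; 38 higher, 22 lower). Those fell to 13 without Smad2_KO1 replicate 1, 15 without Smad2_KO1 replicate 2 and 14 without Smad2_KO2 replicate 1 in Ctrl, and to 37 without Smad2_KO1 replicate 2 and 38 without Smad2_KO2 replicate 2 in Paused. With size factors the calls outside the bodies were 10 higher and 10 lower in Ctrl, and 22 higher and 37 lower in Paused.

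The fold change moved with the level of the interval, at members and elsewhere alike, and position and level go together because promoters are the strongest intervals (median level 236.4 normalized reads at clustered promoters and 20.6 inside the bodies in Ctrl). Between the lowest and the highest decile of levels the members' median went from 0.26 down to -0.07 in Ctrl, and in Paused from 0.41 down to -0.16. The highest decile held 220 of the Ctrl members (21.5%) and 211 of the Paused members (21.8%). Non-members weighted to the members' levels were called at 7.17% in Ctrl, 3.57% higher and 3.60% lower, and at 14.6% in Paused, 7.92% higher and 6.68% lower. The share of Zfp intervals outside clusters that was called was 6.84% in Ctrl (165 of 2413) and 13.9% in Paused (312 of 2242). At olfactory and vomeronasal receptor genes, another clustered family, it was 8.38% (101 of 1205) and 16.3% (163 of 1001). The part that level has in these shares was not tested.

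**Figure D2:**
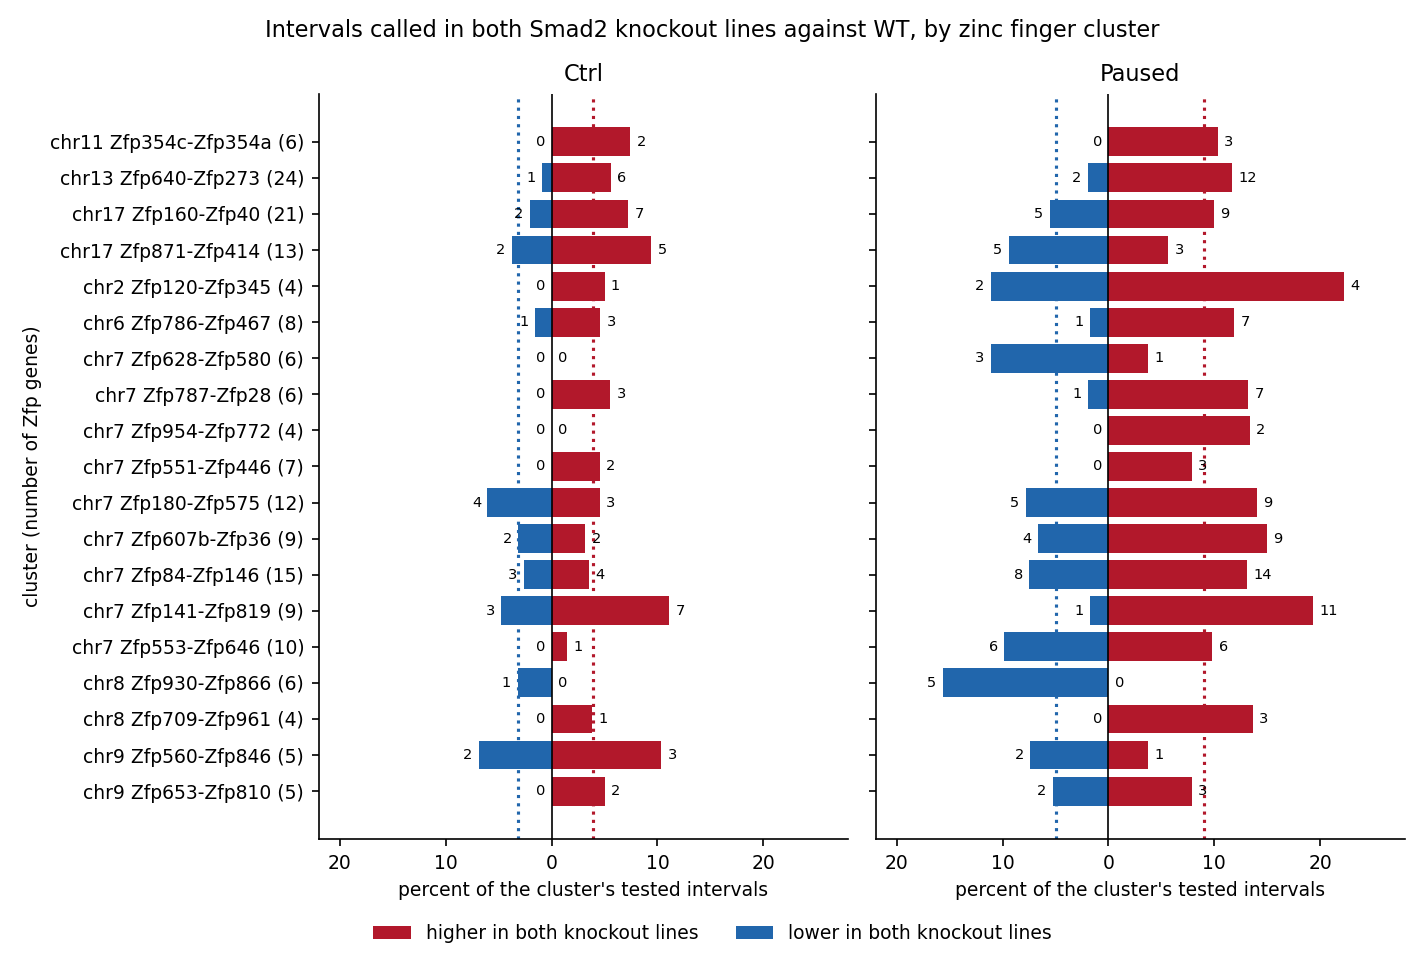
Bars give the percent of each cluster's tested intervals called in both knockout lines, higher to the right and lower to the left, with the number of intervals at the end of each bar and the number of genes after the cluster's name. Dotted lines are the percent over all intervals (3.95 higher and 3.2 lower in Ctrl, 9.01 and 4.92 in Paused): the cluster from Zfp141 to Zfp819 extends beyond the line for higher calls in both tables, and the cluster from Zfp930 to Zfp866 holds lower calls only.

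The clusters differed in direction. The chromosome 7 cluster from Zfp141 to Zfp819 (chr7:42473386-43618279, 9 genes) had 7 higher and 3 lower calls among 63 tested Ctrl intervals, 15.9%, and 11 higher and 1 lower among 57 in Paused, 21.1%. Its median log2 fold changes of 0.20 and 0.29 stood beside 0.05 and 0.04 over the intervals within 2 Mb on either side, which were not matched for level. The cluster's median level was 18.2 normalized reads in Ctrl and 21.2 in Paused. Non-members in the level deciles that hold those values had medians of 0.17 and 0.21, closer to the cluster's own. The medians stayed above 0 under each scaling tried, between 0.08 and 0.21 in Ctrl and between 0.14 and 0.33 in Paused. The Ctrl count was 6 without Smad2_KO2 replicate 1 and also without WT replicate 3, and the Paused count was 7 without WT replicate 1. The cluster holds Zfp819, which is known to act on retroelements in embryonic stem cells, and Zfp975, the member gene with the most calls over both tables.

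On chromosome 8, the cluster from Zfp930 to Zfp866 (chr8:69209018-69774911, 6 genes) had medians below 0 in both tables. It had 0 higher and 1 lower call among 31 Ctrl intervals (3.23% lower, all intervals 3.2%). In Paused it had 0 higher and 5 lower among 32 (15.6% lower, all intervals 4.92%). Its medians were -0.07 and -0.12 where its flanks had 0.01 and 0.03. Library totals gave 1 higher and 4 lower in Paused and size factors 0 and 9, and the median was below 0 under each scaling. Its Paused count fell to 3 without Smad2_KO2 replicate 1 and without WT replicate 1. Medians below 0 were not particular to this cluster. The cluster from Zfp560 to Zfp846 had -0.04 and -0.10 beside flanks of 0.08 and 0.15, with calls in both directions. That from Zfp553 to Zfp646 had -0.04 and -0.002.

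The chromosome 17 cluster from Zfp871 to Zfp414 (chr17:32765496-33631716, 13 genes) parted by position, as other clusters did. Of its 10 Paused promoters 5 were called (all promoters 14.1%), at Zfp871, Zfp811, Zfp799, Zfp563 and Zfp101, all lower. The median over the 10 was -0.29, where promoters of all genes had -0.13. The median over all its 53 intervals was 0.03 (-0.07 with size factors). In Ctrl 2 of 10 promoters were called (all promoters 3.26%), at Zfp811 and Zfp101, both lower, beside 5 higher calls elsewhere in the cluster. With offsets along the level its Paused calls were 2 higher and 1 lower. Its Paused count of 8 became 5 without Smad2_KO1 replicate 1 or 3 and 14 without WT replicate 3. In Ctrl the count of 7 became 3 without Smad2_KO1 replicate 1 or 3, and 4 without Smad2_KO2 replicate 1 or 2 or WT replicate 2 or 4. Paused medians of promoters and of whole clusters parted alike elsewhere. They were -0.21 and 0.17 from Zfp84 to Zfp146, -0.19 and 0.11 from Zfp607b to Zfp36, and -0.16 and 0.13 from Zfp160 to Zfp40.

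The other large clusters held calls in both directions, where 7.15% of all intervals were called in Ctrl and 13.9% in Paused. On chromosome 13 the 24 genes from Zfp640 to Zfp273 had 6 higher and 1 lower call among 107 Ctrl intervals and 12 higher and 2 lower among 103 in Paused. The Ctrl count was 4 without Smad2_KO1 replicate 1 or Smad2_KO2 replicate 2 or 4. The Paused count was 5 to 9 without any of the Smad2_KO1 libraries, Smad2_KO2 replicate 1, 2 or 4, or WT replicate 1 or 4. The 21 genes from Zfp160 to Zfp40 on chromosome 17 had 7 higher and 2 lower of 97, then 9 and 5 of 90, and its Ctrl count was 4 without Smad2_KO1 replicate 1. The largest cluster by intervals, Zfp84 to Zfp146 on chromosome 7 with 15 genes, had 4 higher and 3 lower of 113, then 14 and 8 of 107 (20.6%). Its Ctrl count was 2 without Smad2_KO1 replicate 1, 3 without WT replicate 4 and 4 without Smad2_KO2 replicate 1 or 3 or WT replicate 1 or 3, and its Paused count was 12 without Smad2_KO2 replicate 1 or 2. Its neighbours showed like shares in Paused: 9 higher and 5 lower of 64 (21.9%) from Zfp180 to Zfp575 and 9 higher and 4 lower of 60 (21.7%) from Zfp607b to Zfp36. The former fell to 8 without Smad2_KO1 replicate 2 and to 9 without Smad2_KO2 replicate 2 or 3 or WT replicate 1, and the latter to 8 without Smad2_KO1 replicate 2 or WT replicate 1 and to 7 without Smad2_KO2 replicate 2. In Ctrl the cluster from Zfp180 to Zfp575 had 3 higher and 4 lower calls of 66, a count of 4 without Smad2_KO2 replicate 2 or 3 or WT replicate 4.

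In the smaller clusters the shares rest on few intervals. The 8 genes from Zfp786 to Zfp467 on chromosome 6 had 3 higher and 1 lower call of 65 in Ctrl (6.15%, all intervals 7.15%). In Paused they had 7 and 1 of 59 (13.6%, all intervals 13.9%), where 4 were left without Smad2_KO1 replicate 2 or Smad2_KO2 replicate 2. From Zfp787 to Zfp28 there were 3 higher and 0 lower of 54 (5.56%), then 7 and 1 of 53 (15.1%). The 10 genes from Zfp553 to Zfp646 had 1 higher of 68 in Ctrl and 6 higher and 6 lower of 61 in Paused (19.7%, all intervals 13.9%), where 5 were left without Smad2_KO1 replicate 2 and 7 without Smad2_KO1 replicate 3 or Smad2_KO2 replicate 1. The 4 genes from Zfp954 to Zfp772 and the 6 from Zfp628 to Zfp580 had 0 calls in Ctrl, of 13 and 31 tested intervals. In Paused the former had 2 higher of 15 (1 left without Smad2_KO2 replicate 1, 2 or 3 or WT replicate 2 or 3) and the latter 1 higher and 3 lower of 27. The latter's count of 4 became 1 without Smad2_KO2 replicate 2, and 2 without Smad2_KO1 replicate 1 or 3, Smad2_KO2 replicate 3 or WT replicate 1 or 4. From Zfp120 to Zfp345 on chromosome 2, 6 of 18 Paused intervals were called (33.3%, all intervals 13.9%), 4 higher and 2 lower, against 1 of 20 in Ctrl. The remaining described clusters, Zfp354c to Zfp354a, Zfp551 to Zfp446, Zfp709 to Zfp961, Zfp560 to Zfp846 and Zfp653 to Zfp810, had 1 to 5 calls in each table. Their shares were 3.85% to 17.2% in Ctrl (all intervals 7.15%) and 7.89% to 13.6% in Paused (all intervals 13.9%). The 5 Ctrl calls from Zfp560 to Zfp846 became 3 without Smad2_KO1 replicate 3 or WT replicate 2. The 5 Paused calls from Zfp653 to Zfp810 became 2 without Smad2_KO2 replicate 1 and 3 without Smad2_KO1 replicate 2 or WT replicate 1 or 4.

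The chromosome 4 cluster from Zfp980 to Zfp933 was nearly without accessible intervals. It spans 2178 kb and holds 15 genes, of which 14 had no interval in either table. All of its 4 Ctrl and 5 Paused intervals belonged to Zfp933. In Paused the Zfp933 promoter at chr4:147848342-147848542 had 134.9, 134.2, 130.6 and 120.5 normalized reads in the WT libraries, 97.9, 68.0, 81.2 and 84.4 in Smad2_KO1 and 97.9, 90.0, 86.4 and 97.4 in Smad2_KO2. Every knockout library lay below every WT library, with log2 fold changes of -0.65 and -0.48 ± 0.12 (SE) and limma adjusted p of 0.000214 and 0.00474. In 3 of the 12 genes of this cluster with a RefSeq start, more than 50% of the 40-letter stretches around the start recur around other starts. Among all 172 clustered genes with a start, 13 were of that kind; 5 of them (38.5%) had a Ctrl promoter interval, against 127 of the other 159 (79.9%). How reads from such repeated stretches were placed is not given in the sources used here, and its part in the missing intervals was not tested.

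Zfp786 was among the genes with an interval that fell in both treatments. At chr6:47824378-47824578, inside the gene, the Ctrl values were 103.6, 118.2, 169.8 and 117.5 normalized reads in the WT libraries, 56.4, 59.6, 71.2 and 62.4 in Smad2_KO1 and 58.1, 66.4, 58.4 and 65.4 in Smad2_KO2. The groups did not overlap, and limma gave log2 fold changes of -1.0 and -1.0 ± 0.14 (SE) with adjusted p of 2.99e-06 and 2.62e-06. In Paused the interval starting at 47824357 had 68.0, 40.8, 85.2 and 75.5 in WT, 31.4, 26.3, 27.6 and 23.8 in Smad2_KO1 and 37.0, 18.8, 22.4 and 19.7 in Smad2_KO2. Again no knockout library reached the lowest WT library, with log2 fold changes of -1.23 and -1.43 ± 0.21. Both calls held in each of 25 alternative fits. The strongest interval assigned to that gene, outside its body at 47813448, had 751.7 ± 81.6 normalized reads (SD, n = 4) for WT in Ctrl, 790.6 ± 99.1 for Smad2_KO1 and 794.2 ± 38.4 for Smad2_KO2 and was not called.

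Zfp964 on chromosome 8 fell near its 3' end. At chr8:69664825-69665025 the Ctrl values were 44.9, 27.8, 70.1 and 62.5 in WT, 17.1, 25.7, 18.7 and 19.6 in Smad2_KO1 and 26.1, 20.9, 22.3 and 16.1 in Smad2_KO2. The log2 fold changes were -1.23 and -1.16 ± 0.22 (SE) by limma, with adjusted p of 0.000143 and 0.000306. In Paused they were -1.11 and -1.07 ± 0.25, and WT replicates 3 and 4 (56.1 and 54.3) lay well above WT replicates 1 and 2 (23.8 and 24.7). The groups did not overlap in either table, but with WT replicates 1 and 2 as the only WT libraries neither call remained. Zfp109 on chromosome 7 fell in both tables as well, by 0.82 and 0.73 on the log2 scale in Ctrl and by 0.90 and 1.27 in Paused, and those calls too were lost with WT replicates 1 and 2 alone. The Ctrl call of Zfp109 was also lost without Smad2_KO2 replicate 1 or 3 or WT replicate 3, and its libraries overlapped there.

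**Figure D3:**
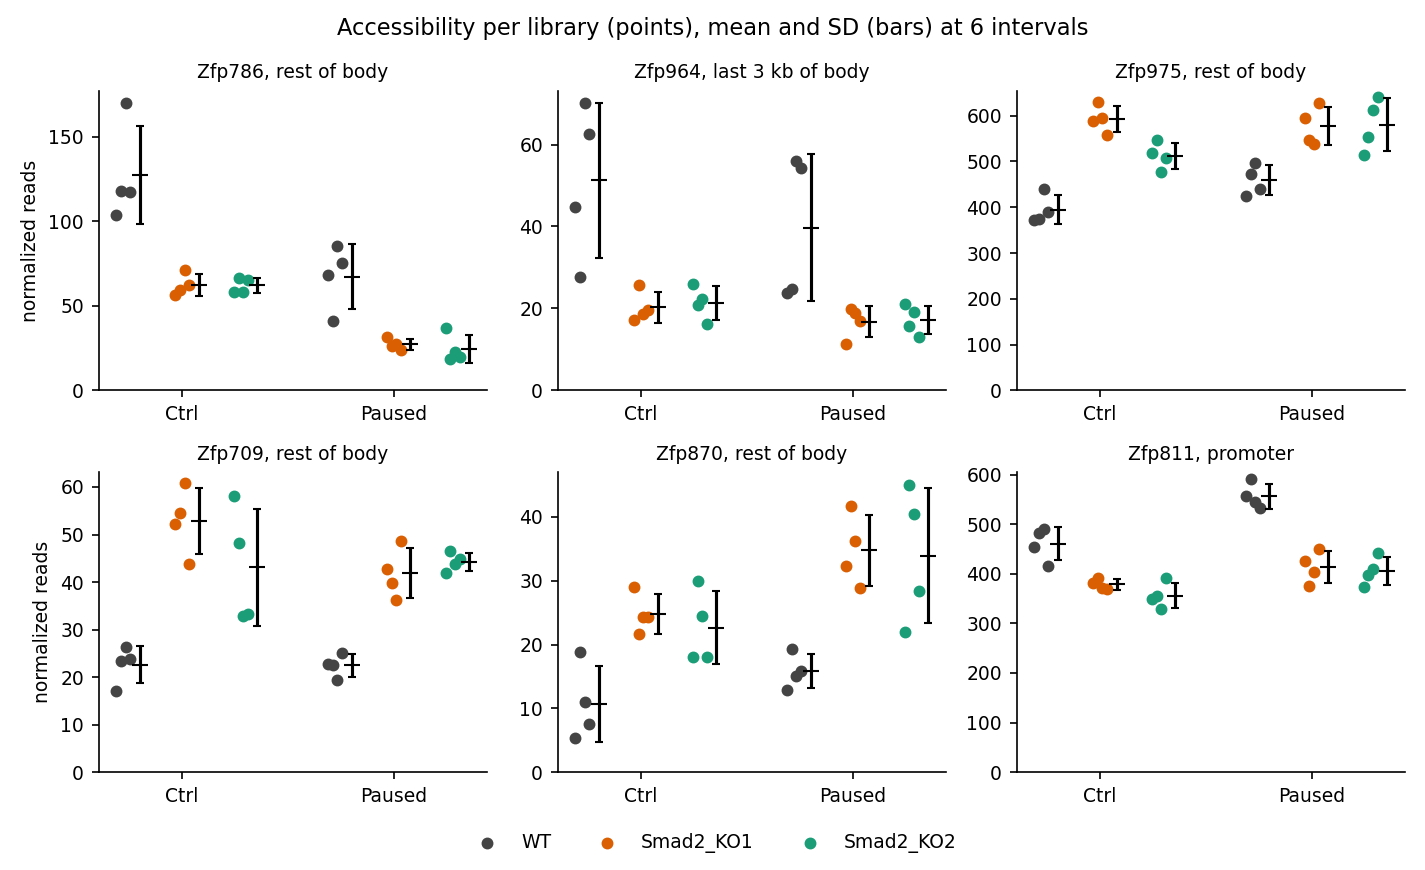
Points are the normalized reads of each library at 6 intervals, by treatment and line, with the mean and SD of each group of 4 beside them. Zfp786, Zfp964 and the Zfp811 promoter are lower in both knockout lines, Zfp975, Zfp709 and Zfp870 are higher, and only Zfp870 in Ctrl has overlapping WT and knockout libraries; levels in the 2 treatments come from separately normalized tables.

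Among intervals that rose, the strongest was inside Zfp975. At chr7:42679744-42679944 the Ctrl values were 372.8, 374.4, 440.3 and 389.3 in WT, 589.0, 629.2, 594.1 and 557.9 in Smad2_KO1 and 518.1, 546.1, 478.1 and 508.2 in Smad2_KO2. Every knockout library exceeded every WT library, with log2 fold changes of 0.59 and 0.38 ± 0.08 (SE) and limma adjusted p of 1.20e-06 and 0.000951. In Paused, WT had 424.2, 473.4, 497.4 and 439.7, Smad2_KO1 595.8, 546.4, 538.2 and 626.7 and Smad2_KO2 514.4, 554.2, 612.9 and 641.1. The groups again did not overlap, and the changes of 0.33 and 0.34 ± 0.08 were no longer called with DESeq2 size factors, TMM factors or either count test. Zfp975 had 3 called intervals of 15 in Ctrl and 4 of 13 in Paused, all higher. Its neighbour Zfp141 rose alike: at chr7:42497429-42497629 it averaged 351.1 in WT, 480.6 in Smad2_KO1 and 471.1 in Smad2_KO2 in Ctrl, and 352.4, 480.2 and 463.1 at the matched Paused interval.

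Zfp709, inside the gene at chr8:71885219-71885419, had 17.1, 23.3, 26.3 and 23.7 in WT, 52.1, 54.5, 60.9 and 43.9 in Smad2_KO1 and 58.1, 48.2, 32.9 and 33.2 in Smad2_KO2 in Ctrl. The log2 fold changes were 1.20 and 0.88 ± 0.19 (SE), and in Paused 0.87 and 0.95 ± 0.17, with no overlap in either table. Zfp870 on chromosome 17 rose by log2 fold changes of 1.27 and 1.12 ± 0.27 in Ctrl, where WT replicate 2 (18.8) reached above the lowest Smad2_KO2 library (18.0), and by 1.09 and 1.02 ± 0.22 in Paused, where the groups were apart. Zfp81 in the same cluster rose by 0.86 and 0.85 ± 0.24 in Ctrl and by 1.00 and 1.15 ± 0.22 in Paused. Its Ctrl call was lost without Smad2_KO1 replicate 4, Smad2_KO2 replicate 4 or WT replicate 3.

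Further large rises in Ctrl were at low levels. They lay inside Zfp777 (1.53 and 1.32 ± 0.23, from 10.1 normalized reads in WT to 30.9 and 26.4) and Zfp85 (1.23 and 1.07 ± 0.24) and outside the bodies of Zfp65 (1.14 and 1.36 ± 0.21), Zfp345 (1.04 and 1.08 ± 0.16), Zfp995 (0.99 and 1.19 ± 0.25) and Zfp786 (1.09 and 1.01 ± 0.29). A rise inside Zfp872, from 4.67 in WT to 10.2 and 15.6, was lost in 17 of the 25 alternative fits, including those without any 1 library other than WT replicate 1. With so low a WT level it passed the filter mainly through knockout libraries. Further falls in Ctrl were inside Zfp790 (-1.02 and -1.02 ± 0.25), Zfp575 (-0.65 and -0.62 ± 0.17) and Zfp266 (-0.73 and -0.71 ± 0.22, lost in 8 alternatives) and beside Zfp819 (-0.83 and -0.61 ± 0.17) and Zfp36 (-0.71 and -0.66 ± 0.15). These values are log2 fold changes of Smad2_KO1 and Smad2_KO2 with their SE. The Zfp786 call was lost without Smad2_KO1 replicate 2, Smad2_KO2 replicate 1 or WT replicate 3, and the Zfp819 call without Smad2_KO2 replicate 1 or WT replicate 3. That of Zfp266 was lost without Smad2_KO1 replicate 3, Smad2_KO2 replicate 2 or 3, or WT replicate 2, 3 or 4.

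In Paused the largest rises lay where WT was close to closed. The interval in the last 3 kb of Zfp27 had 8.6, 0.0, 10.8 and 8.0 in WT and 14.2 to 26.3 in the knockout libraries, with log2 fold changes of 2.01 and 1.8 ± 0.42 (SE). Beside Zfp428, WT had 1.1, 2.1, 1.1 and 4.0 and the knockout libraries 6.8 to 11.9, with changes of 1.99 and 1.85 ± 0.43. At such levels the added 1 and the sampling of few reads weigh on the fold change. Better supported by depth was the rise inside Zfp454 on chromosome 11, where WT had 17.3, 24.7, 19.4 and 21.2, Smad2_KO1 42.8, 51.6, 57.0 and 50.6 and Smad2_KO2 48.9, 51.0, 66.2 and 49.2. The groups were apart, with changes of 1.26 and 1.34 ± 0.17, limma adjusted p of 3.19e-06 and 1.12e-06, and the call held in each of 25 alternatives.

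Other Paused rises were beside Zfp879 (1.67 and 1.34 ± 0.33) and Zfp820 (1.43 and 1.74 ± 0.41) and inside Zfp93 (1.59 and 1.67 ± 0.40), Zfp629 (1.52 and 1.6 ± 0.36) and Zfp995 (1.27 and 1.39 ± 0.34). The Zfp93 interval, with 1.32 to 3.24 normalized reads in WT, also passed the filter through knockout libraries alone. Falls were found inside Zfp566 (-0.70 and -0.61 ± 0.14) and Zfp930 (-0.86 and -0.60 ± 0.20) and beside Zfp677 (-0.61 and -0.57 ± 0.13), Zfp819 (-0.77 and -0.67 ± 0.16) and Zfp866 (-0.78 and -0.69 ± 0.22). WT and knockout libraries overlapped at Zfp820, Zfp629, Zfp995, Zfp930 and Zfp866. The Zfp930 call was lost without Smad2_KO2 replicate 2 or 4 or WT replicate 1, and the Zfp866 call without Smad2_KO2 replicate 1 or 3 or WT replicate 1, 3 or 4. The genes with the most called intervals in Paused had 4 each (all intervals 13.9%). They were Zfp382 (of 8 tested), Zfp428 (of 14), Zfp74 (of 8), Zfp975 (of 13) and Zfp977 (of 11). The calls of Zfp382, Zfp975 and Zfp977 were all higher, while Zfp428 and Zfp74 had calls in both directions. In Ctrl Zfp81 (of 4 tested), Zfp975 (of 15) and Zfp995 (of 7) had 3 each, all higher (all intervals called 7.15%).

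The Zfp811 promoter at chr17:32809920-32810120, which overlaps the sequence printed above, was lower in both knockout lines in each table. In Ctrl it had 453.9, 482.8, 489.6 and 416.3 normalized reads in the WT libraries, 382.1, 391.7, 372.0 and 368.5 in Smad2_KO1 and 348.7, 355.9, 328.3 and 390.5 in Smad2_KO2. The groups were apart, with log2 fold changes of -0.28 and -0.37 ± 0.08 (SE) and limma adjusted p of 0.0210 and 0.00210, but the call was lost without Smad2_KO1 replicate 1, 3 or 4 and without WT replicate 2. In Paused WT had 555.9, 591.4, 543.8 and 532.4, Smad2_KO1 426.6, 375.2, 403.4 and 448.9 and Smad2_KO2 373.6, 398.2, 408.6 and 440.9. The changes of -0.43 and -0.46 ± 0.08 had adjusted p of 0.000182 and 8.64e-05 and held in each of 25 alternatives.

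The other Paused promoters that were lower were those of Zfp458, Zfp52, Zfp946, Zfp945, Zfp871, Zfp799, Zfp563, Zfp101, Zfp120, Zfp345, Zfp933, Zfp112, Zfp780b, Zfp790, Zfp420, Zfp266 and Zfp810. Zfp112, which carries the word AATGTAGT at 2 places, fell by 0.24 and 0.21 on the log2 scale in Paused, a call lost in 11 of the 25 alternatives (among them those without Smad2_KO1 replicate 2 or 3, Smad2_KO2 replicate 2, 3 or 4, or WT replicate 1 or 4), and had 506.1 ± 19.2, 512.4 ± 41.6 and 489.3 ± 31.0 normalized reads (SD, n = 4) in WT, Smad2_KO1 and Smad2_KO2 in Ctrl. The Zfp640 promoter was the exception in Ctrl: it rose from 241.4, 221.2, 215.8 and 197.3 in WT to 313.7, 264.2, 316.7 and 289.9 in Smad2_KO1 and 282.6, 295.8, 265.6 and 286.8 in Smad2_KO2. Promoters with and without the printed word moved alike in size: of 30 tested with it in Paused 5 were lower and the median was -0.20, and of 98 without it 13 were lower and the median was -0.16. In Ctrl 1 of 29 with it and 5 of 102 without it were called, with medians of -0.04 and -0.08. No test of that difference was made.

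The strongest intervals of genes with published roles were mostly not called, though some of their other intervals were. Zfp809, which silences murine leukemia virus through its primer binding site, had 365.6 normalized reads at its promoter in WT, 347.7 in Smad2_KO1 and 329.8 in Smad2_KO2 in Ctrl. In Paused it had 462.0, 398.0 and 366.7, with limma adjusted p of 0.0584 for Smad2_KO1 and 0.00433 for Smad2_KO2, so it passed in 1 line alone. The strongest intervals of Zfp568, which represses a placental Igf2 transcript, of Zfp708, which binds retroelement repeats, and of Zfp819, Zfp961 and Zfp282 were not called in either table. Their log2 fold changes lay between -0.21 and 0.08 in Ctrl, and between -0.22 and -0.04 in Paused. Over all tested intervals of each gene, calls in Ctrl were 1 of 5 at Zfp708 (higher), 2 of 7 at Zfp819 (lower) and 0 at the others (all intervals 7.15%). In Paused they were 3 of 19 at Zfp568 (2 higher, 1 lower), 1 of 4 at Zfp708 (higher), 1 of 7 at Zfp819 (lower) and 1 of 10 at Zfp809 (higher). Zfp961 and Zfp282 had 0 (all intervals 13.9%).

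**Figure D4:**
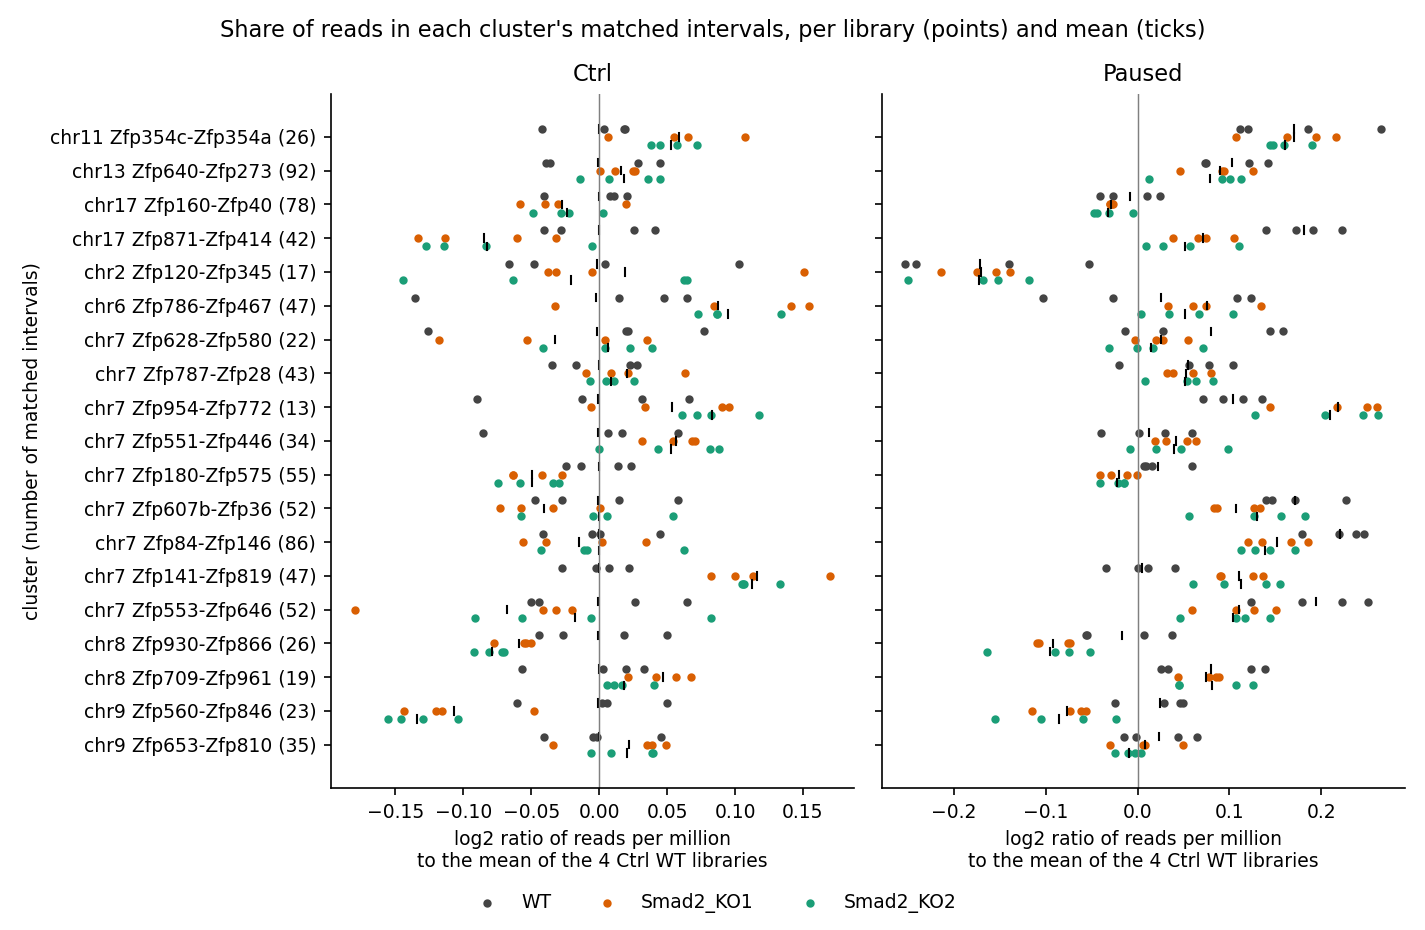
Each point is the log2 ratio of a library's RPM in a cluster's matched intervals to the mean of the 4 Ctrl WT libraries, with ticks at group means and the number of matched intervals after each cluster's name. In the cluster from Zfp141 to Zfp819 the knockout points lie right of all WT points in both panels, and in the cluster from Zfp84 to Zfp146 all Paused points lie right of the Ctrl WT mean.

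To set the treatments side by side, intervals of the tables were paired where the overlap covered 50% or more of both, which left 822 member intervals of 215826 in all, and the recovered reads were scaled to each library's total in matched intervals and given as RPM. The 47 matched intervals from Zfp141 to Zfp819 together took 334.3 ± 4.80 RPM (SD, n = 4) for WT in Ctrl, 362.4 ± 9.64 for Smad2_KO1 and 361.4 ± 3.45 for Smad2_KO2, and 335.4 ± 7.28, 360.9 ± 6.05 and 361.5 ± 10.8 in Paused. Knockout and WT libraries did not overlap in either treatment, and the treatments overlapped within each line. In the cluster from Zfp180 to Zfp575 the sums of the knockout lines were lower without overlap in both, at 397.2 ± 4.81 and 397.3 ± 5.85 against 411.0 ± 6.45 in Ctrl. Under the authors' scaling its median log2 fold changes were above 0, at 0.04 in Ctrl and 0.06 in Paused, while its promoters had -0.08 and -0.19. From Zfp871 to Zfp414 the knockout sums were lower without overlap in Paused, at 339.0 ± 6.42 and 334.4 ± 10.4 against 365.9 ± 8.82. The chromosome 9 cluster from Zfp560 to Zfp846 had 162.4 ± 5.10 in WT, 150.9 ± 4.37 in Smad2_KO1 and 148.1 ± 2.34 in Smad2_KO2 in Ctrl, with overlapping ranges.

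The clusters as a whole took a slightly larger share of reads in Paused. Their 822 intervals took 6213.4 ± 55.9 RPM in WT, 6203.8 ± 69.6 in Smad2_KO1 and 6225.5 ± 65.9 in Smad2_KO2 in Ctrl, and 6556.9 ± 98.8, 6438.7 ± 60 and 6407.6 ± 83.5 in Paused. The log2 ratio of Paused to Ctrl was 0.08 in WT, 0.05 in Smad2_KO1 and 0.04 in Smad2_KO2, without overlap of the libraries in any line. No other set of intervals was summed in this way, so the shift is not shown to be particular to the clusters. Members are frequent in the highest decile of level (21.5% in Ctrl, 21.8% in Paused), and the part of level was not tested. Knockout and WT libraries overlapped in both treatments. Among the 19 clusters with 10 or more tested intervals in both tables, the WT ratio was largest from Zfp84 to Zfp146 (0.22, 0.17 and 0.14 in the same order), Zfp553 to Zfp646 (0.19, 0.18 and 0.12, the last with overlap) and Zfp871 to Zfp414 (0.18, 0.16 and 0.13). It was below 0 from Zfp120 to Zfp345 on chromosome 2, at -0.17, -0.19 and -0.15, where only the Smad2_KO1 libraries were apart. It was also below 0 in all 3 lines from Zfp930 to Zfp866 (-0.02, -0.03 and -0.02) and by less than 0.01 from Zfp160 to Zfp40, with overlap in each line. Of the clusters with fewer intervals, Zfp980 to Zfp933 had 0.25, 0.17 and 0.19 with overlap in each line, and Zfp972 had -0.22, -0.15 and -0.14, where the WT libraries were apart. Treatment and table cannot be told apart here, because peaks were listed and scaled separately for each treatment.

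**Figure D5:**
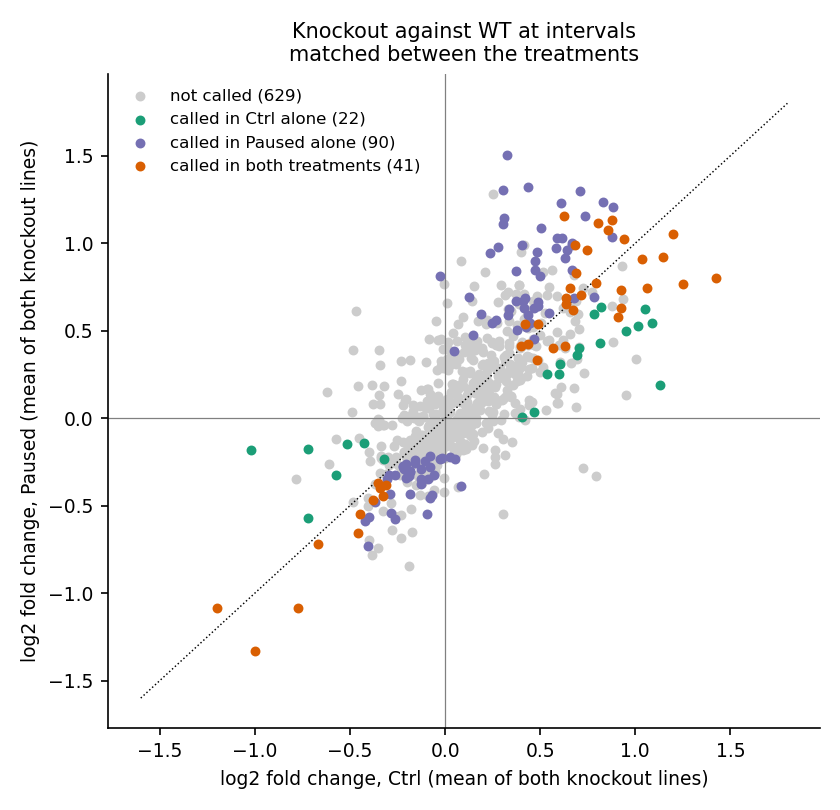
Each point is a matched zinc finger interval tested in both tables, with the mean log2 fold change of both knockout lines against WT in Ctrl and in Paused and the dotted line marking equality. The 41 intervals called in both tables lie in the upper right (30 higher) and the lower left (11 lower), and none changed sign.

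Of the matched intervals 782 were tested in both tables. There 63 were called in Ctrl and 131 in Paused, and 41 in both with the same sign, 30 higher and 11 lower, which is 65.1% of the Ctrl calls and 31.3% of the Paused calls. Over all matched intervals the shares were 60% and 33.0%. All 63 Ctrl calls had the same sign in Paused, as did 127 of the 131 Paused calls in Ctrl, and 0 were called in opposite directions. Across the 782 intervals the fold changes correlated at Pearson's r = 0.74 (Spearman's rho = 0.77), the same r as over all matched intervals. Intervals are not independent replicates, and the dependence on level is common to both axes. Of the member intervals 247 were listed in Ctrl alone (22.2%, all intervals 23.6%) and 165 in Paused alone (16.0%, all intervals 15.9%).

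The corepressors and chromatin enzymes through which KRAB proteins act were counted in the same way, with no test against all intervals. Around 28 such genes 27 of 553 tested Ctrl intervals (4.88%, all intervals 7.15%) were called, 13 higher and 14 lower, with a median log2 fold change of 0.04, and 49 of 483 in Paused (10.1%, all intervals 13.9%), with a median of 0.09. The Paused calls were 33 higher (6.83%, all intervals 9.01%) and 16 lower (3.31%, all intervals 4.92%), under the authors' scaling alone. At Trim28, the corepressor, 0 of 5 tested intervals were called in each table. Setdb1, the methyltransferase it recruits, had 0 of 15 in Ctrl and 0 of 16 in Paused. The de novo DNA methyltransferase genes had calls in opposite directions in Paused: Dnmt3a had 9 higher and 0 lower of 40, and Dnmt3b 0 higher and 3 lower of 7. Their median log2 fold changes were 0.22 and -0.03, at median levels of 22.1 and 104.8 normalized reads. The part of level in this was not tested. Smarcad1, a chromatin remodeller that acts with TRIM28, had 5 higher of 33 (15.2%, all intervals 13.9%). Cbx1, which encodes an HP1 protein, had 3 lower of 18 (16.7%). These genes were picked from the 28 with their values known.

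At the edge of the rule, the 21 genes with exactly 3 Zfp neighbours had 7 higher and 0 lower calls among 105 tested Ctrl intervals and 16 higher and 3 lower among 95 in Paused, with medians of 0.14 and 0.15. The 38 genes with exactly 2 neighbours, which are not members, had 8 higher and 3 lower of 261 and 23 higher and 15 lower of 256, with medians of 0.01 and 0.02. Over all intervals 3.95% were higher and 3.2% lower in Ctrl, and 9.01% and 4.92% in Paused, with medians of 0.08 and 0.12. The difference between the edge groups was not tested. By the false discovery rate in the authors' deposited table, which sets all 8 knockout libraries against WT, 117 members were under 0.05 in Ctrl (77 higher, 40 lower; all intervals 12.6%) and 260 in Paused (139 and 121; all intervals 22.2%). All 73 Ctrl calls made here and 160 of the 161 Paused calls were among them with the same sign.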

How the data were processed

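ATAC-seq was measured in 24 libraries, 50000 cells each per the labels' protocols. The submitters' processing notes name FastQC, Trim Galore, Bowtie2 2.4.1, MACS3 3.0.3, DiffBind 3.16.0 and build mm10; the handling of multi-mapped reads, of duplicates and of the Tn5 offset is not given in the sources used here. The authors deposited 1 table per treatment with a normalized signal per library and interval, a Fold column on the log2 scale, a p-value and a false discovery rate for all knockout libraries against WT.

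In each deposited signal column low values fall on whole multiples of a common step: 100% of the values under 30 lay within 0.0101 of one, where at most 2.69% would by chance. Dividing by the step gave back whole reads; for 4 columns out of 24 this step is close to 1, so scaled and unscaled reads are hard to tell apart. Library factors lay between 0.866 and 1.17 in Ctrl, and in Paused between 0.755 and 1.33.

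The deposited values were tested with limma 3.58.1 in R 4.3.3 on log2(value + 1), in 1 fit per table with line as the factor, over intervals with 10 or more in at least 4 libraries; this understates fold changes of low intervals. Benjamini-Hochberg adjustment ran over all tested intervals. The script was tested on simulated data. Alternatives used edgeR 4.0.16 and DESeq2 1.42.0 on the recovered reads, other scalings, filters, pseudocounts and member rules, averaged knockout libraries, left-out libraries and the replicate number as a block. Gene bodies and start sites came from RefSeq tables of GRCm38.p6, which is mm10; an interval was assigned to the nearest member body. Named intervals were the 8 higher and 8 lower calls with the largest change per treatment (at most 2 per gene), the strongest interval of each cluster with 10 or more tested intervals in both tables, listed genes with published roles, the genes with the most calls and the 5 largest changes called in both tables; called promoters, the Zfp141 and Zfp933 intervals, the position classes, the comparison of left-out libraries by cluster and the promoter word were chosen after their values were seen. The members and lists were chosen with earlier results of these data known. No value column was left unmapped (0).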

Additional observations from a re-analysis of the deposited data

Results flagged for a closer look

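Among 375 groups of 4 values of the named intervals and cluster levels, 12 held a library far from the other 3, where chance flags about 1 in 20 groups, 18.75 here. In Ctrl these were Smad2_KO2 replicate 2 at the Zfp85 interval (28.21 normalized reads, others 21.13 to 22.31), WT replicate 3 at Zfp777 (14.24, others 8.54 to 8.96), Smad2_KO1 replicate 2 beside Zfp36 (48.32, others 60.91 to 61.55), WT replicate 3 at the Zfp846 promoter (329.65, others 416.56 to 427.25) and Smad2_KO2 replicate 2 at the Zfp809 promoter (306.71, others 336.77 to 338.7). In Paused they were Smad2_KO2 replicate 2 beside Zfp879 (20.25, others 11.23 to 12.03), Smad2_KO2 replicate 3 inside Zfp454 (66.23, others 48.94 to 50.99), Smad2_KO2 replicate 2 at the Zfp418 promoter (316.46, others 273.91 to 277.67) and WT replicate 4 at Zfp93 (1.32, others 3.22 to 3.24).

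Of the cluster levels in Ctrl, Smad2_KO1 replicate 2 stood apart from Zfp120 to Zfp345 (171.7 RPM, others 150.7 to 154.2) and from Zfp553 to Zfp646 (361.5, others 398.0 to 404.0), and Smad2_KO2 replicate 2 from Zfp141 to Zfp819 (366.5, others 359.4 to 359.9).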

How the results depend on the processing

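Of the 73 Ctrl and 161 Paused calls, a single group of 8 knockout libraries gave 163 and 323, averaged knockout libraries 112 and 207, requiring a log2 fold change of 1 or more in size left 9 and 33, gene bodies alone 48 and 98, WT replicates 1 and 2 as the only WT 35 and 133, DESeq2's Wald test 37 and 125, and offsets along the level 60 and 87. Leaving out 1 library gave 47 to 72 and 108 to 174. No filter, a pseudocount of 0.1, TMM factors, size factors, library totals, edgeR, and member rules of 250 kb, at least 5 neighbours, no largest cluster or no other genes nearby stayed within 1.5 times. Between the knockout lines 0 members were called under every alternative that keeps the lines apart.

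The members' median log2 fold change, 0.09 in both tables, became 0.0087 in Ctrl and -0.011 in Paused by the Wald test, 0.016 and -0.0053 with size factors, 0.024 and 0.0067 with TMM factors, 0.016 and -0.00084 by edgeR and 0.044 and 0.039 with offsets along the level. It was 0.037 in Ctrl with WT replicates 1 and 2 alone and 0.127 in Paused with library totals. Leaving out 1 library gave 0.051 (without WT replicate 4) to 0.109 in Ctrl and 0.068 to 0.109 in Paused. The strongest Zfp786 interval in Paused turned from below 0 to 0.17 with offsets along the level.

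Taking the replicate number as a block, the calls were 76 and 188, and the members' medians were unchanged at 0.09. To look for pairing, the mean of each line was subtracted from the log2 values at every interval, and the residuals were correlated between libraries. Residuals of same-numbered libraries correlated by 0.01 to 0.05 on average between lines in Ctrl and by 0.01 to 0.11 in Paused. Those of every library correlated best with those of its own number only between the knockout lines in Paused (4 of 4). The residual correlation of same-numbered Paused knockout libraries averaged 0.105 against -0.035 for other numbers. Their lowest pair had 0.034, so not every pair exceeded 0.1 and the number was not taken to pair the libraries. Depth limits the intervals near 10 reads, where a difference of a few reads is not detectable.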
